A study of Mus musculus with 4 samples.

Results

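The 6 intermediate filament genes Krt7, Krt8, Krt18, Krt19, Krt20 and Vim were followed across the cell states of mouse intestinal enteroids (5 keratin genes and the vimentin gene). They were chosen by name, with earlier results of these data known, and all 6 are among the 29161 genes of the count table. The cells were living, eYFP-positive cells of enteroids (cultured structures of gut epithelium, kept in Matrigel) from female CD1 mice that carried 1 Neurog3eYFP reporter allele (Neurog3eYFP/+). Every group below carries that allele, and no reporter-negative cells were analysed here. Neurog3 is the transcription factor that starts the endocrine programme of the gut, so the reporter marks endocrine progenitors and, while the fluorescent protein lasts, their progeny.

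Each of 4 plates held cells sorted 1 per well. Plates 1, 2 and 3 were duodenum replicates 1, 2 and 3, and plate 4 was jejunum replicate 1. The mouse age was 39 weeks for plate 1 and 12 weeks for the others, and the number of animals or cultures behind a plate is not stated. The plate was the replicate throughout, so p-values measure the spread between these plates only. The deposited table, which its label calls filtered, held 72, 83, 72 and 63 cells of plates 1 to 4, 290 in all, with 202711 to 2312044 counts a cell. Median depth was 321534 counts in plate 1 and 678124 in plate 4. Of 92 well names, 88 occur on 2 or more plates, because each plate uses the same well barcodes.

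Cell states were set by other genes than the 6 studied here. Levels are in CPM, the gene's counts scaled by all counts of the cell or of the summed cells. Tph1-high cells had Tph1, the rate-limiting enzyme of serotonin synthesis, at 200 CPM or more. Peptide-hormone-high cells had Cck, Gip, Gcg or Ghrl at 1000 CPM or more. Neurog3-positive cells had 5 or more Neurog3 counts, and Chgb-low cells had Chgb, a protein of endocrine granules, under 2000 CPM. These states held 97, 50, 50 and 139 cells. They overlap: 3 cells were both Tph1-high and peptide-hormone-high, 24 of the Neurog3-positive cells were Chgb-low and 19 were hormone-high. Of the 50 peptide-hormone-high cells, 19 were Chgb-low (2, 9, 2 and 6 in plates 1 to 4). A further 19 cells were in no state. All 97 Tph1-high cells were among the 151 Chgb-high cells, so the comparisons below share cells and are not independent of each other.

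The cells were epithelial. Chgb stood at 59793 to 93525 CPM in Tph1-high cells. It stood at 214 to 690 CPM in Chgb-low cells, which is low by the limit that set this state. Epcam, an epithelial surface protein, stood at 502 to 1316 CPM in every state and plate. Many Chgb-low cells were high in markers of other secretory cells: 102 of 139 (73.4%) held 5000 CPM or more of the summed goblet and Paneth markers, against 13 Chgb-high cells. The 8 goblet markers summed to 18407 to 25764 CPM in Chgb-low cells and to 832 to 1508 CPM in Chgb-high cells. Most of the goblet sum was Tff3 (11751 to 15567 CPM), with Spink4 and Fcgbp, which had 5 or more counts in 139, 135 and 131 of the 139 Chgb-low cells. They had so in 151, 143 and 145 of the 151 Chgb-high cells, so their detection did not separate the states. The other 5 reached 5 counts in few Chgb-low cells: Guca2a in 34, Agr2 in 33, Muc2 in 22, Zg16 in 4 and Clca1 in 1. In Chgb-high cells these were 11, 13, 1, 0 and 0.

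Keratins are the intermediate filament proteins of epithelia. A keratin filament needs a type II partner, here Krt7 or Krt8, and a type I partner, here Krt18, Krt19 or Krt20, whereas vimentin is a type III protein that forms filaments by itself and is best known from mesenchymal cells. In the gut, Krt8 pairs with Krt18, Krt19 and Krt20 in the simple epithelium, and Krt20 is known from differentiated villus cells. The filaments carry mechanical load and tie cells to each other through desmosomes.

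By GRCm38 with the GENCODE M21 annotation, all 6 are protein-coding genes. Krt7 (ENSMUSG00000023039) lies at chr15:101411043-101430313 on the plus strand, Krt8 (ENSMUSG00000049382) at chr15:101996698-102004482 on the minus strand and Krt18 (ENSMUSG00000023043) at chr15:102028180-102032027 on the plus strand. The pair Krt8 and Krt18 thus start 23698 bases apart, with their starts facing each other. Krt19 (ENSMUSG00000020911) lies at chr11:100140810-100148665 and Krt20 (ENSMUSG00000035775) at chr11:99428403-99438150, both on the minus strand. Vim (ENSMUSG00000026728) lies at chr2:13573927-13582826 on the plus strand. Annotated antisense or opposite-strand genes overlap Krt7 (Gm671) and Krt8 (Gm36026). Neither has a row in the table, and whether the counting used strand is not stated in the labels.

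The start regions of the 3 genes whose levels differed most between states or passed a test below are shown as the 200 bases before the RefSeq start, 5′ to 3′ on the gene's own strand (GRCm38.p6). Capitals mark any of 3 motifs searched on both strands. The TATA box was searched as TATAAA. The E-box, which bHLH factors such as Neurog3 bind, was searched as CANNTG, and the GC box as GGGCGG. The window of Vim is chr2:13574111-13574310, that of Krt20 is chr11:99438154-99438353 and that of Krt18 is chr15:102028016-102028215.
Vim: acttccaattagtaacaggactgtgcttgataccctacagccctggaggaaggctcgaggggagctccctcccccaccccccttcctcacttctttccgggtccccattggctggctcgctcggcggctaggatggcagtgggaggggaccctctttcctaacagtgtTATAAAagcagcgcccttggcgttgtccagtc
Krt20: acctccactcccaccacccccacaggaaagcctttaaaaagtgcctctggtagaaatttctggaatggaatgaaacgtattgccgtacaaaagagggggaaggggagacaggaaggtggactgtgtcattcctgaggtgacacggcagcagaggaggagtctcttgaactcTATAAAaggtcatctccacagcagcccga
Krt18: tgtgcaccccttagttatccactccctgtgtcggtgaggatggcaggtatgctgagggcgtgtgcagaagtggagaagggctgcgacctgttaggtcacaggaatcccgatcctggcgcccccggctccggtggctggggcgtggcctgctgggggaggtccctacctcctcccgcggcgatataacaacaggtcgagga
The windows of Vim and Krt20 each hold 1 TATA box and neither of the other motifs, and that of Krt18 holds none of the 3. The Krt7 window holds 1 E-box and 4 GC boxes, and the Krt8 window holds 2 E-boxes. Among 32851 RefSeq windows of the same length, 58.2% hold an E-box, 9.96% a TATA box and 31.0% a GC box by these letters. These matches are letters in a window and were not tested as binding sites.

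The 6 genes fell into a widely shared set and a set that varied between states. Krt7, Krt8 and Krt18 had at least 5 counts in 285, 274 and 282 of the 290 cells. Krt19 reached 5 counts in 153 cells, Vim in 162 and Krt20 in 75. The plot of levels by state shows the same split.

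**Figure D1:**
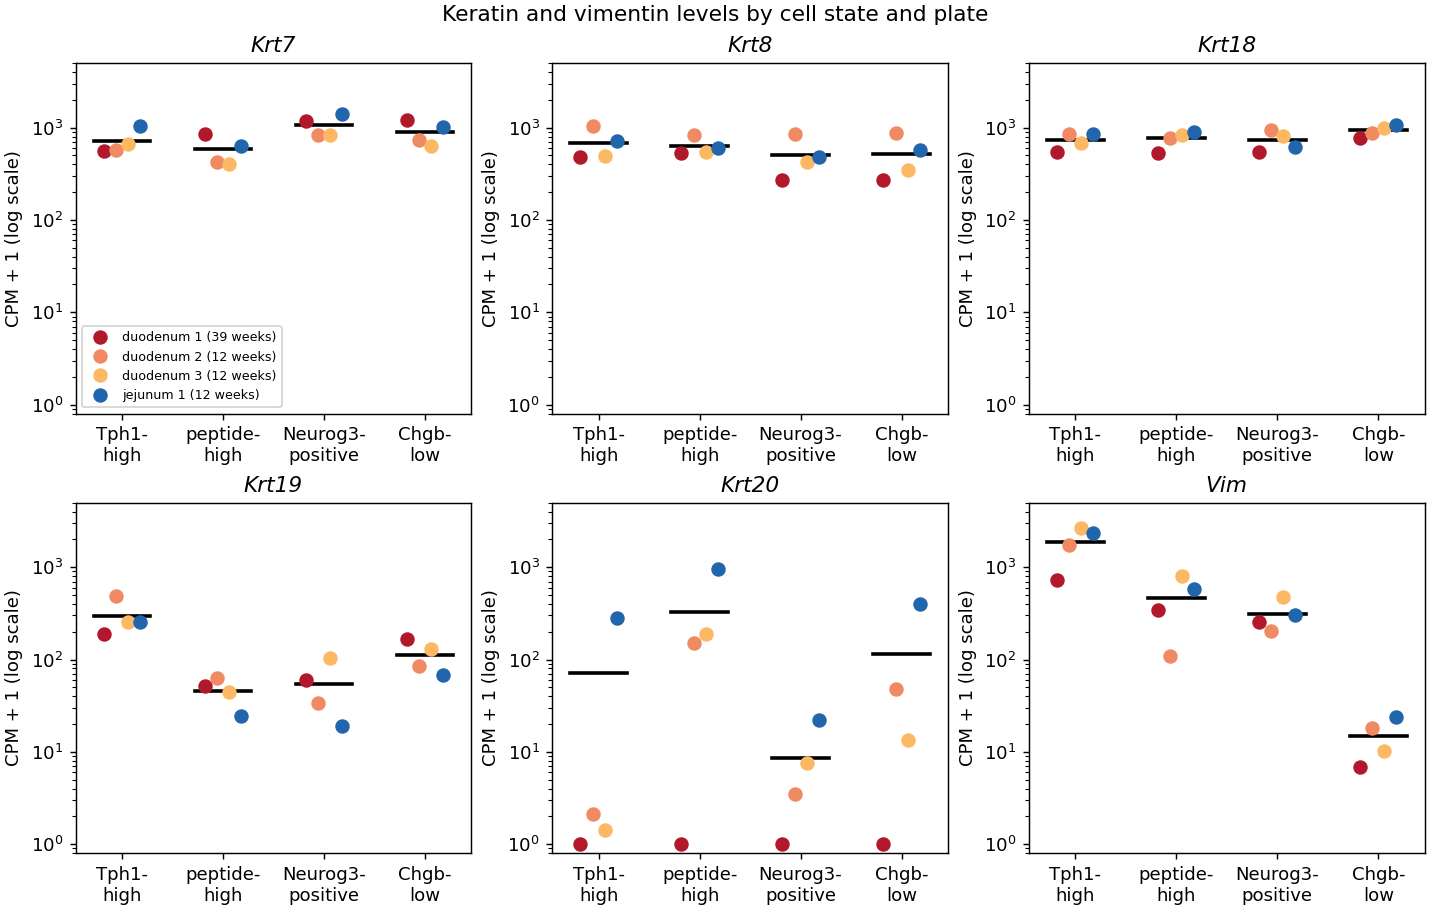
Level of each gene (CPM + 1 on a log axis) in the summed cells of each state, 1 point per plate, with the mean over the 4 plates as a bar; a cell can be in several states. Krt7, Krt8 and Krt18 stay between 267 and 1411 CPM in every state and plate, Vim is lowest in the Chgb-low cells of all 4 plates, and Krt20 is at 0 in all states of duodenum replicate 1.

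Vimentin was the gene that differed most. In Tph1-high cells Vim stood at 722, 1749, 2659 and 2365 CPM in plates 1 to 4 (mean 1874 ± 857 CPM, SD, n = 4 plates). In Chgb-low cells it stood at 5.78, 17.2, 9.14 and 23.0 CPM (13.8 ± 7.80 CPM). The lowest Tph1-high plate was far above the highest Chgb-low plate. Peptide-hormone-high cells (342, 108, 809 and 587 CPM) and Neurog3-positive cells (254, 205, 480 and 305 CPM) lay between them and overlapped each other. The order of the mean summed levels was Tph1-high, peptide-hormone-high (461 ± 303 CPM), Neurog3-positive (311 ± 120 CPM) and Chgb-low. The lowest Tph1-high plate also fell within the range of peptide-hormone-high plates. A few cells set the middle levels: median cells held 1243, 11.3, 10.4 and 4.45 CPM in that order. Without the cell with most Vim counts, peptide-hormone-high cells held 0, 56.5, 26.5 and 288 CPM in plates 1 to 4. Neurog3-positive cells with Tph1 under 200 CPM held 4.97, 25.2, 27.9 and 13.3 CPM.

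Vim passed the test between Chgb-low and Chgb-high cells. Chgb-high cells held 597, 1089, 1693 and 1782 CPM, so all 4 Chgb-high values lay above all 4 Chgb-low values. The log2 fold change was -6.21 ± 0.32 (SE), with an adjusted p of 0.00200 by edgeR's quasi-likelihood test on plate sums with the plate as a block. Of 12679 genes tested there, 505 passed (3.98%), of which 315 were higher in Chgb-low cells (2.48%) and 190 lower (1.5%). With scaling by library totals alone the split was 189 higher and 341 lower. Across all genes, 11.1% were lower in Chgb-low cells with no overlap between plates. The Vim call held under each of its 13 alternatives, with a log2 fold change between -7.17 and -5.98. One of them, the minimum of 10 cells, left out no plate here and so repeats the main fit.

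Most of this Vim came from Tph1-high cells. Of 96 cells with 200 CPM or more of Vim, 81 were Tph1-high (84.4%), 9 were peptide-hormone-high and 3 were Chgb-low. Those 81 make up 83.5% of all Tph1-high cells. In Chgb-high cells with Tph1 under 200 CPM, Vim stood at 122, 200, 360 and 329 CPM in the sums of plates 1 to 4, but the median cell of these plates held only 3.55, 9.01, 11.5 and 16.5 CPM. A few cells carried those sums: 1, 5, 3 and 3 of 7, 21, 13 and 13 cells reached 200 CPM.

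**Figure D2:**
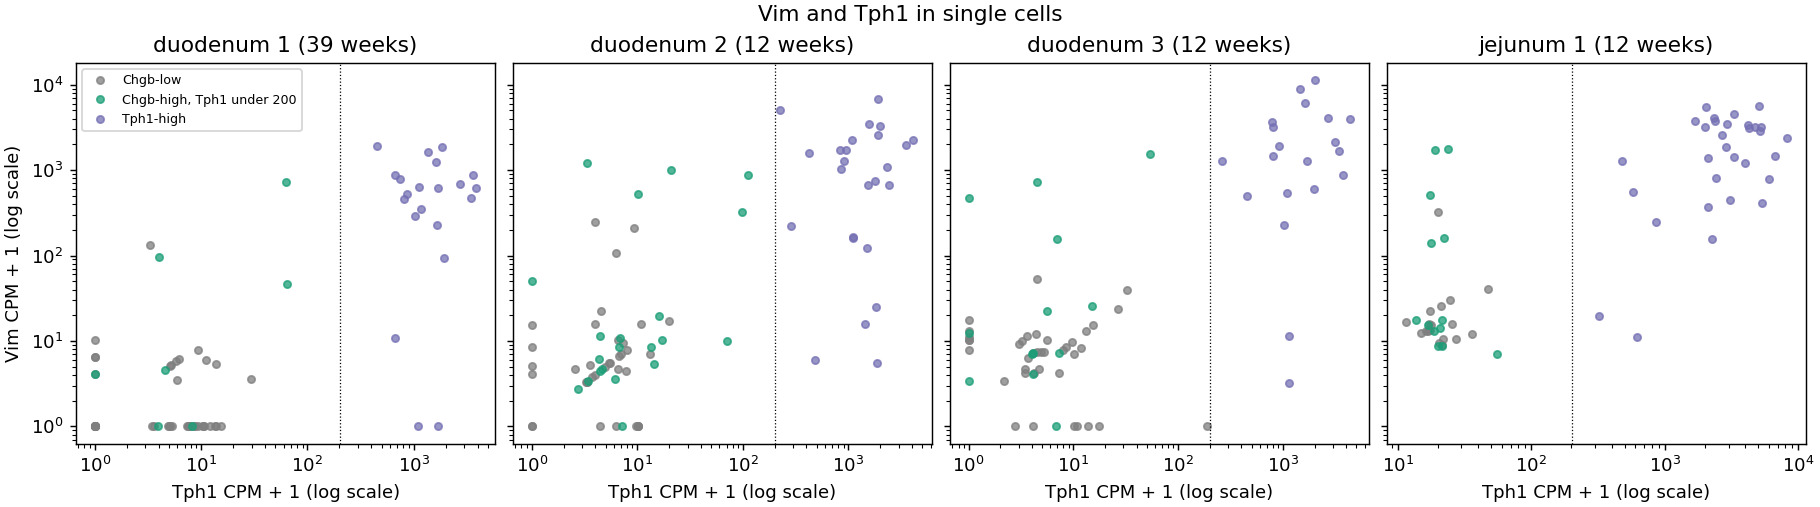
Vim against Tph1 in single cells (both CPM + 1, log axes), 1 panel per plate, with the 200 CPM threshold for Tph1 as a dotted line. Most Tph1-high cells (purple) have Vim above 200 CPM, and most Chgb-low cells (grey) lie near the bottom; the jejunum panel starts at a higher Tph1 level than the others.

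Tph1-high and peptide-hormone-high cells were compared directly on plates 2, 3 and 4, where each state had at least 5 cells, leaving out cells in both. Vim stood at 1749, 2344 and 2309 CPM in Tph1-high cells and at 108, 26.5 and 288 CPM in peptide-hormone-high cells. The values did not overlap, which was so for 9.32% of 11452 genes in this direction. The log2 fold change was 4.39 ± 0.82, but it did not pass the test (adjusted p = 0.405 by edgeR); 13 genes did (0.114%). Of 13 alternatives DESeq2 alone passed (4.09e-10). Vim came to 3.44 without plate 3 and 5.22 without plate 4, and 2.43 with cells in both states counted as peptide-hormone-high. The cells in both states weighed on the sums: in plate 3, 1 such cell of 10 held 97.0% of the peptide-hormone-high Vim counts, and in plate 1 a single cell of 3 held all of them.

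Within the peptide-hormone cells the summed Vim level was uneven among the hormone genes. Cells with Ghrl (ghrelin) at 1000 CPM or more held 0, 5.67, 8.70 and 40.2 CPM of Vim in plates 1 to 4, from 2, 6, 2 and 6 cells. Cells with Gcg, the proglucagon gene, held 7.54 and 6.17 CPM in plates 2 and 3, but 467 CPM in plate 4. Cells with Cck (cholecystokinin) held 684, 138, 890 and 771 CPM, and those with Gip 220, 157 and 743 CPM in plates 2 to 4. The median Cck cell held far less, 7.56, 6.22 and 16.6 CPM in plates 2 to 4. These groups share cells and were not tested against each other.

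**Figure D3:**
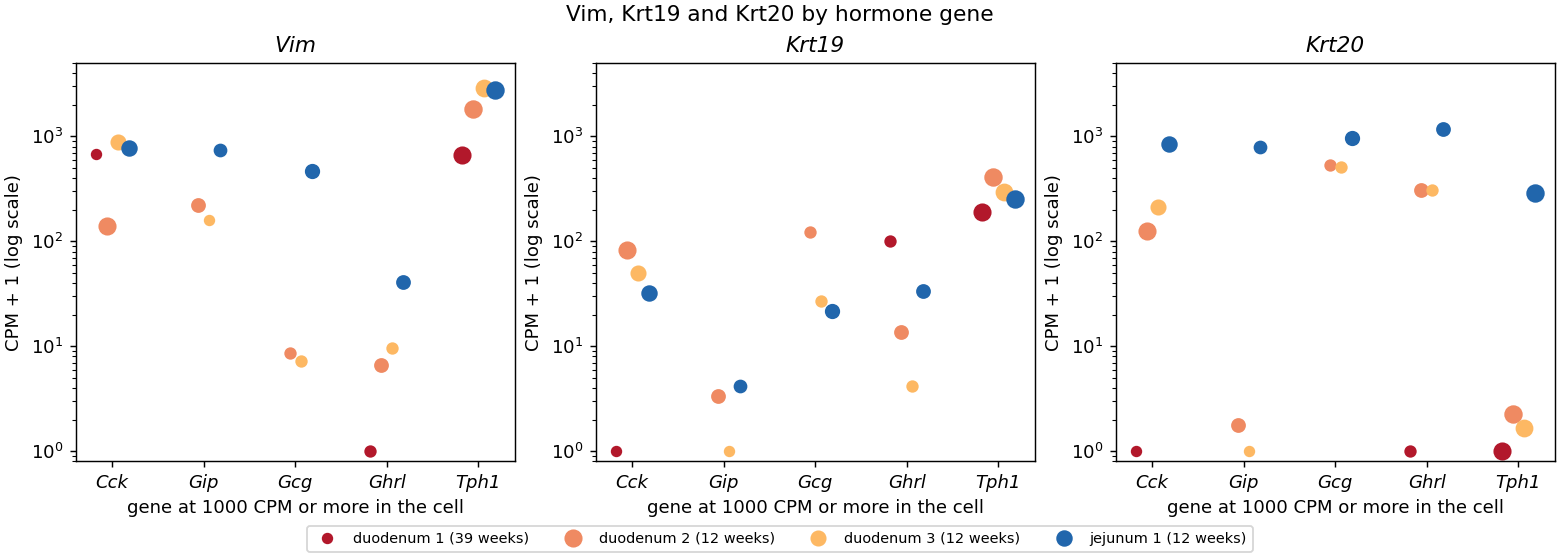
Levels of Vim, Krt19 and Krt20 (CPM + 1, log axis) in the summed cells that hold 1000 CPM or more of the gene on the x axis, 1 point per plate, larger for more cells. Krt19 is highest in Tph1 cells of all 4 plates and Vim in those of plates 2 to 4 (in plate 1 the Cck value is about as high), whereas Krt20 of plates 2 and 3 is highest in Gcg and Ghrl cells and near 0 in Gip and Tph1 cells.

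Neurog3-positive cells held Vim where they also held Tph1. In cells that were Neurog3-positive and Tph1-high, Vim stood at 479, 727, 1519 and 672 CPM, from 3, 3, 8 and 3 cells. In Neurog3-positive cells with Tph1 under 200 CPM it stood at 4.97, 25.2, 27.9 and 13.3 CPM, from 4, 9, 16 and 4 cells. The 2 sets of plate values do not overlap, and the difference between them was not tested.

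Against hormone-high cells, with cells in both left out, Neurog3-positive cells of plates 2 and 3 held 23.1 and 27.9 CPM of Vim and the hormone-high cells 1089 and 1901 CPM. These Neurog3-positive cells, 7 and 16, included only 2 and 3 Chgb-high cells and no Tph1-high cell, so this comparison overlaps with that of Chgb-low and Chgb-high cells. The log2 fold change was -5.57 ± 0.56 and fell just short of the threshold (adjusted p = 0.0514, edgeR). Of its 12 alternatives, 3 of which leave 1 plate and no test, 4 passed: DESeq2 (1.37e-08), no filter on low counts (0.000222), thinned cells (0.000933) and at least 4 cells per plate and state (0.00235). The adjusted p rose to 0.196 without the plate block. With cells in both states counted as Neurog3-positive the log2 fold change was -1.99 (adjusted p = 0.0921). Here 8 of 11678 genes passed (0.0685%), and 33.4% of genes were lower in Neurog3-positive cells with no overlap. Against Chgb-low cells, with cells in both left out, the Neurog3-positive side was all Chgb-high. It held 7 and 11 cells in plates 2 and 3, of which 3 and 8 were Tph1-high. Vim stood at 325 and 1196 CPM there, against 15.6 and 10.2 CPM in Chgb-low cells. The 2 and 3 of these Neurog3-positive cells outside the hormone states held 5.86 and 165 CPM. The Vim log2 fold change was 5.20 ± 0.84 and did not pass (adjusted p = 0.340, edgeR). It was 6.43 without plate 2 and 3.99 without plate 3, and it passed with DESeq2 (1.12e-07) and with at least 4 cells (0.0212). No gene of 11354 passed in that comparison (0%). At an unadjusted p under 0.05 there were 1097, and 479 passed with DESeq2.

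Vim is often read as a mark of mesenchymal cells, so markers of other cell types were summed beside it. The 8 mesenchymal markers summed to 0.220 to 21.4 CPM in Tph1-high cells and to 0.136 to 1.93 CPM in Chgb-low cells. Within each plate the Tph1-high sum was the higher one, in plate 3 on 2 counts. In Tph1-high cells Pdgfra and Dcn were at 0, and 1 cell held 98.2% and 98.1% of the mesenchymal counts of plates 1 and 2. In plate 4, which had the most (515 counts), the top cell held 38.8%. In the 17, 21, 18 and 22 Tph1-high cells without any mesenchymal count, Vim stood at 653, 1793, 2549 and 2470 CPM, against 722, 1749, 2659 and 2365 CPM in all Tph1-high cells. The 4 measured blood cell markers summed to at most 0.378 CPM in Tph1-high cells. The 3 measured endothelial markers summed to 10.4 to 70.1 CPM in Tph1-high cells and to 0.0586 to 3.03 CPM in Chgb-low cells, so they were higher where Vim was. In Tph1-high cells nearly all of this was Pecam1 (2460 counts, 5 or more in 26 of 97 cells), while Kdr had 2 counts and Tek 1. The 5 glia and neuron markers summed to 0.246 to 7.20 CPM in Tph1-high and to 0.0906 to 4.82 CPM in Chgb-low cells. The part of these counts in the Vim level was not tested.

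The genes whose pattern over the 290 cells was most like that of Vim were Tac1 (Pearson r = 0.82 within plates), Tph1 (0.80) and Chgb (0.76), among 7555 genes with 5 or more counts in at least 10% of cells. Tac1 encodes the precursor of substance P. For Tac1, r was 0.79, 0.83, 0.85 and 0.82 in plates 1 to 4. Cells of 1 plate share depth and sorting, and Tph1 and Chgb set the states, so these values are a description.

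A low level of Vim in a cell was not taken as expression. All 19 Chgb-low cells of plate 4 had at least 1 Vim count, with a median of 12.7 CPM at a median depth of 607471 counts. Counts of this kind can be carried between wells of a plate. A stricter limit of 5 counts and 0.5% of the plate's Vim counts was passed by 0 of those 19 cells (exact binomial 95% interval 0 to 17.6%) and by 23 of 31 Tph1-high cells (74.2%; 55.4 to 88.1%). Tph1-high cells held 59825 of the plate's 63421 Vim counts, so they largely set this limit. The highest of the 19 Chgb-low cells held 321 CPM of Vim and stayed below it. Thinned to 100000 counts a cell, 29 of the 31 Tph1-high cells and 14 of the 19 Chgb-low cells still had a Vim count. These intervals and limits cover counting error only.

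Krt8 and Krt18, the basic pair of simple epithelia, were present in nearly every cell of every state. Krt8 stood at 482, 1034, 486 and 722 CPM in Tph1-high cells and at 268, 877, 350 and 578 CPM in Chgb-low cells of plates 1 to 4. Its highest plate was plate 2 in all 4 states. Peptide-hormone-high cells held 526 to 835 CPM and Neurog3-positive cells 267 to 842 CPM. The mean levels, from 681 ± 261 CPM in Tph1-high to 503 ± 244 CPM in Neurog3-positive cells, differed by less than the SD over plates. That SD does not pair the states by plate. Within each plate Krt8 was higher in Tph1-high than in Chgb-low cells, a difference that was not tested.

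No Krt8 comparison passed the test. The smallest adjusted p of the 4 was 0.794, for Chgb-low against Chgb-high cells (log2 fold change 0.10 ± 0.18), although the plain CPM was lower in Chgb-low cells of 3 of 4 plates. The fitted sign there depends on the scaling, since the TMM factors of edgeR shift the median of all genes by 0.41 (log2) relative to library totals, and with library totals alone the value was -0.31. The same shift was 0.26 for Neurog3-positive against hormone-high cells, -0.42 for Neurog3-positive against Chgb-low cells, -0.15 for the age comparison and -0.04 for Tph1-high against peptide-hormone-high cells.

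Krt18 was higher in Chgb-low cells. It stood at 778, 884, 999 and 1072 CPM in Chgb-low cells and at 487, 696, 713 and 788 CPM in Chgb-high cells of plates 1 to 4. Within each plate the Chgb-low value was the higher one, which held for 12.4% of all genes, although the 2 ranges overlap slightly between plates. The log2 fold change was 0.89 ± 0.14 and passed the test (adjusted p = 0.0301, edgeR). Thus 2 of the 6 genes, Krt18 and Vim, passed here against 3.98% of all genes. The 6 genes were chosen with earlier results of these data known, so this share is a description only.

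The Krt18 call was a narrow one. It was lost without any 1 of the 4 plates (adjusted p 0.0691 to 0.156), without the plate block (0.143), without the filter on low counts (0.0519) and with library totals alone (log2 fold change 0.48, adjusted p = 0.142). Without the Chgb-low cells that were high in goblet and Paneth markers the log2 fold change was 0.57 (adjusted p = 0.334). In the 7, 6, 17 and 7 Chgb-low cells that remained, Krt18 stood at 522, 696, 1125 and 1005 CPM.

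Among the hormone states Krt18 did not separate. Its mean level was 730 ± 146 CPM in Tph1-high, 763 ± 159 CPM in peptide-hormone-high and 732 ± 182 CPM in Neurog3-positive cells. Tph1-high against peptide-hormone-high cells gave a log2 fold change of -0.14 ± 0.22 (adjusted p = 0.948). The 2 partners did not track each other closely from cell to cell: r between Krt8 and Krt18 was 0.05, 0.16, 0.30 and 0.21 in plates 1 to 4.

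The gene most like Krt18 was Gm5200 (r = 0.52), a processed pseudogene on chromosome 13. Its transcript is 90.5% identical to that of Krt18 over 1267 aligned bases, so reads of either could be counted for the other and the Krt18 level is uncertain to that extent. Gm5200 itself held 3.08 to 3.57 CPM in the summed cells of the 4 states. The next genes were Eif4e (0.23) and Rpl36-ps2 (0.23). For Krt8 the closest genes were Cfl1, an actin-severing protein (0.28), Glul (0.26) and Coa3 (0.25).

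Krt7, the other type II gene, had its highest mean levels over plates in Neurog3-positive and Chgb-low cells. It stood at 1185, 834, 823 and 1411 CPM in Neurog3-positive cells and at 1214, 730, 632 and 1018 CPM in Chgb-low cells of plates 1 to 4. Tph1-high cells held 560, 573, 656 and 1044 CPM and peptide-hormone-high cells 856, 418, 405 and 638 CPM. In plates 3 and 4 Chgb-low cells lay below Tph1-high cells, and ranges of neighbouring states overlapped throughout. The means were 1063 ± 286, 898 ± 267, 708 ± 228 and 580 ± 213 CPM in that order.

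Krt7 was close to the threshold in 1 comparison. Chgb-low cells held more Krt7 than Chgb-high cells (539, 450, 567 and 910 CPM) in 4 of 4 plates, with a log2 fold change of 0.95 ± 0.21 and an adjusted p of 0.0714 by edgeR. Of 13 alternatives 2 passed, DESeq2 (0.00991) and a Chgb limit of 500 CPM (0.0433). The other 11 did not, with an adjusted p of 0.0849 to 0.250 when a plate was left out. It came to a log2 fold change of 0.54 with library totals and 0.58 (adjusted p = 0.462) without Chgb-low cells high in goblet and Paneth markers. The Chgb-low cells left then held 1792, 426, 579 and 642 CPM of Krt7, so plates 2 and 4 lay below Chgb-high cells. Neurog3-positive cells outside the hormone states, 7 and 16 in plates 2 and 3, included only 2 and 3 Chgb-high cells. They held 1003 and 845 CPM of Krt7 against 488 and 523 CPM in hormone-high cells. There the log2 fold change was 1.12 ± 0.46 (adjusted p = 0.566), and 12.2% of genes were higher with no overlap.

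Of the 17 cells with 2000 CPM or more of Krt7, 11 were Chgb-low and 0 were peptide-hormone-high. These states held 139 and 50 of all 290 cells. The 11 cells were mostly of plate 1, with 7, 2, 1 and 1 in plates 1 to 4. In plate 4, 4 of the 6 cells at that level were Tph1-high. Tph1-high against peptide-hormone-high cells gave a log2 fold change of 0.58 ± 0.21 (adjusted p = 0.700), with Krt7 higher in 3 of 3 plates as for 18.5% of genes. The closest genes were Ftl1, a ferritin light chain (r = 0.31), Ftl1-ps1 (0.31) and Gm6204 (0.31), which are weak relations. Gip cells of plate 2 held the least Krt7 among the hormone groups of more than 2 cells, 92.5 CPM from 6 cells, but plate 4 had 392 CPM from 4 cells.

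Krt19, a type I keratin that lacks the tail of the others, was highest in Tph1-high cells. Tph1-high cells held 188, 489, 251 and 254 CPM in plates 1 to 4 (295 ± 133 CPM). Chgb-low cells held 168, 84.9, 130 and 66.2 CPM (112 ± 45.7 CPM), which lay below all Tph1-high plates. Neurog3-positive cells held 59.5, 32.5, 102 and 18.1 CPM and peptide-hormone-high cells 50.2, 61.6, 43.1 and 23.4 CPM, and these 2 states overlapped.

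In the direct comparison on plates 2, 3 and 4, Krt19 stood at 489, 250 and 261 CPM in Tph1-high cells and at 61.6, 25.8 and 19.6 CPM in peptide-hormone-high cells. The log2 fold change was 3.29 ± 0.32 and the adjusted p 0.0898 by edgeR, short of the threshold. DESeq2 gave 1.96e-10, the other 12 alternatives did not pass, and leaving out a plate gave 0.315 to 0.735. Krt19 was also lower in Neurog3-positive than in hormone-high cells of both plates compared, 40.4 and 129 CPM against 332 and 219 CPM, as were 41.7% of genes. That log2 fold change was -1.64 ± 0.88 (adjusted p = 0.644), with -0.29 without plate 2 and -2.95 without plate 3.

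Krt19 was uneven among cells of 1 state. Of 97 Tph1-high cells, 42 held 200 CPM or more (43.3%), against 4 of 50 peptide-hormone-high cells (8%) and 25 of 139 Chgb-low cells (18.0%). In plate 1, 12 of the 19 Krt19-high cells were Chgb-low and 6 were Tph1-high, whereas in plate 2 the counts were 3 and 16. Between Chgb-low and Chgb-high cells the log2 fold change was -0.59 ± 0.38 (adjusted p = 0.426), with -0.98 without plate 1 and -0.28 without plate 2.

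The genes most like Krt19 were Pigr, the receptor that carries IgA across the epithelium (r = 0.44), Tmprss2, a membrane serine protease (0.40), and Lypd8 (0.39). For Pigr, r was 0.39, 0.45, 0.48 and 0.47 in plates 1 to 4. Pigr stood at 2386 CPM in all Tph1-high cells summed and at 359 CPM in all peptide-hormone-high cells. Krt19 and Vim, both highest in Tph1-high cells, had an r of -0.01, 0.59, 0.32 and 0.30 over all cells of plates 1 to 4. Within Tph1-high cells alone r was -0.11, 0.34, 0.19 and 0.18, so cells of that state with much Vim did not regularly hold much Krt19.

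Krt20, the type I keratin of differentiated gut cells, depended most on the plate. Plate 1 held 0 Krt20 counts among 23893272, which allows at most 0.126 CPM by the limit of 3 counts for the plate. Plates 2, 3 and 4 held 46.4, 32.3 and 424 CPM over all cells. Compared with that limit, plates 2 and 3 were at least 370-fold and at least 257-fold higher. Plate 1 also held 3 peptide-hormone-high cells, against 22 and 10 in plates 2 and 3, and Gip and Gcg were at 0 in all its states. Age, animals, plate and the make-up of cells cannot be told apart here.

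Where Krt20 was present, its summed level was high in peptide-hormone-high cells, with 149, 190 and 966 CPM in plates 2 to 4. The median cell of that state held 0, 35.2 and 916 CPM. In these plates 5 of 22, 5 of 10 and 14 of 15 such cells had 5 or more counts. Tph1-high cells held 1.15, 0.440 and 278 CPM, Neurog3-positive cells 2.52, 6.52 and 21.3 CPM, and Chgb-low cells 46.5, 12.5 and 395 CPM. These Chgb-low values include 9, 2 and 6 cells that were also peptide-hormone-high. Peptide-hormone-high was the highest state in each of the 3 plates. With plate 1 at 0 in all states, the ranges of all 4 states overlapped.

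With cells in both states left out, Tph1-high cells held 1.15, 0.456 and 269 CPM and peptide-hormone-high cells 149, 204 and 1009 CPM of Krt20. The log2 fold change was -6.00 ± 1.66 and did not pass (adjusted p = 0.519, edgeR). DESeq2 gave 2.20e-09, and the other 12 alternatives did not pass. Krt20 came to -4.31 without plate 3, -4.92 without plate 2 and -7.82 without plate 4 (adjusted p 0.381 to 0.814), and -2.43 without the plate block. Krt20 was lower in Tph1-high cells of 3 of 3 plates, as were 13.1% of genes. Neurog3-positive cells held 3.24 and 9.21 CPM against 75.3 and 84.8 CPM in hormone-high cells of plates 2 and 3, a log2 fold change of -3.59 ± 1.45 (adjusted p = 0.566). It was -2.73 without plate 2 and -4.45 without plate 3, and of the alternatives that gave a test DESeq2 alone passed (0.0477).

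Among hormone genes the Krt20 values rest on few cells. In plates 2 and 3 Krt20 stood at 530 and 512 CPM in Gcg cells (2 cells each) and at 310 and 310 CPM in Ghrl cells (6 and 2 cells). Of the 2 Gcg cells of plate 2, 1 held 925 CPM and the other 0, and 3 of the 6 Ghrl cells had 5 or more counts. The groups share cells, and none of these differences was tested. Gip cells of the same plates held 0.777 CPM (6 cells) and 0 CPM (1 cell). In plate 4 all 4 hormone groups were high, from 795 CPM in Gip to 1178 CPM in Ghrl cells. The genes most like Krt20 were Gcg (r = 0.41), Sstr5, a somatostatin receptor (0.40), and Ffar1, a fatty acid receptor (0.39). In plates 2, 3 and 4 r with Gcg was 0.27, 0.59 and 0.40.

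Krt20 counts were found in every jejunum cell of the table. All 63 cells had at least 1 Krt20 count, the lowest held 2.40 CPM, and 25 held 200 CPM or more. By the stricter limit of 5 counts and 0.5% of the plate's Krt20 counts, 13 of 15 peptide-hormone-high cells (86.7%, exact interval 59.5 to 98.3%), 13 of 31 Tph1-high cells (41.9%), 6 of 19 Chgb-low cells and 0 of 7 Neurog3-positive cells passed. In Tph1-high cells of plate 4, 1 cell held 30.2% of the Krt20 counts and the median cell 19.7 CPM.

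**Figure D4:**
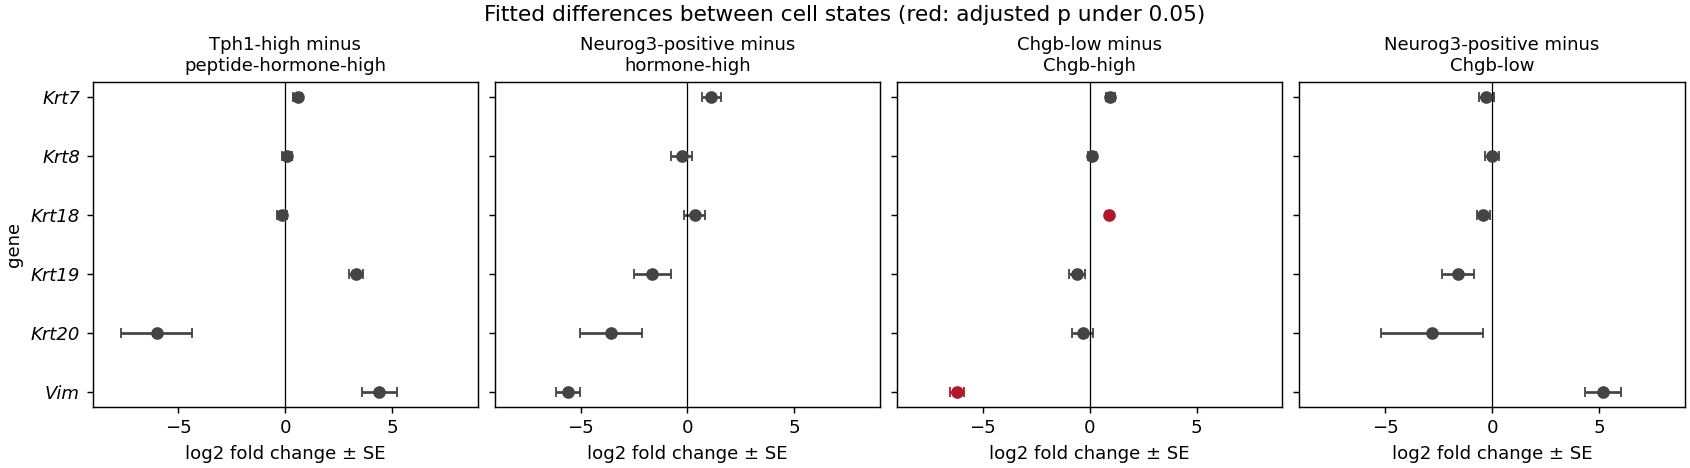
Fitted log2 fold changes with SE for the 6 genes in the 4 comparisons of cell states (plates 2 to 4, plates 2 and 3, plates 1 to 4, and plates 2 and 3, from left to right); red points have an adjusted p under 0.05 over all genes tested. Of the 6 genes, Krt18 and Vim are red, both in the Chgb comparison, and Vim lies far from 0 in all 4 panels.

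Between plates rather than states, no gene passed. Jejunum against duodenum set 1 plate against 3, with 0 of 19329 genes called by edgeR (0%); 819 lay at an unadjusted p under 0.05, and 803 passed by DESeq2. Krt20 (log2 fold change 3.98 ± 1.83) and Vim (1.35 ± 0.65) had the highest values of the 6 genes there, both with an adjusted p of 0.934. For 39 weeks against 12 weeks in the duodenum, 0 of 18480 genes passed (0%); 1412 lay at an unadjusted p under 0.05, and 1008 passed by DESeq2. Vim had a log2 fold change of -1.54 ± 0.50 (adjusted p = 0.636) and Krt8 of -1.05 ± 0.60 (adjusted p = 0.661). The Vim difference passed with DESeq2 (0.0272) and under none of its other tested alternatives, and the Krt8 value was -0.45 without plate 2 and -1.47 without plate 3. Krt20 differed most of the 6 genes by age. With plate 1 at 0 counts its fitted value is no bound, so the folds above stand for its size. Its adjusted p was 0.375 by edgeR, and it passed with DESeq2 (2.66e-06), without the filter (1.89e-05) and with thinned cells (0.0312). Over all cells Vim stood at 254, 611, 710 and 1364 CPM in plates 1 to 4, and Tph1-high cells made up 21 of 72, 25 of 83, 20 of 72 and 31 of 63 cells. Tissue or age, animals, plate and the make-up of cells cannot be told apart here.

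The other genes of the filament system gave no calls. The 35 other keratin genes of the table together held 1.73% of all keratin counts, and only 2 or 3 of them were tested in a comparison of states. Of 19 listed keratin partners and desmosome genes, which anchor the filaments at cell contacts, 15 to 18 were tested and 0 passed in any of the 6 comparisons. Of 17 other intermediate filament genes, 8 to 12 were tested and 0 passed. Between Chgb-low and Chgb-high cells the partner list had 3 of 17 genes at an unadjusted p under 0.05 and a median log2 fold change of -0.56, against -0.08 over all genes. Of the 10 mesenchymal programme genes, 1 was tested in that comparison and 0 passed.

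Few cells lay close to the Tph1 threshold, and more lay close to the peptide-hormone and Chgb limits. Between 100 and 200 CPM of Tph1 there were 2 cells, with 0 and 870 CPM of Vim, and between 200 and 400 CPM there were 4, with 18.8 to 5044 CPM. Just under the Chgb limit 12 cells held a median of 8.50 CPM of Vim, and 8 cells just above it held 10.4 CPM. Vim was low on both sides of the Chgb limit. Just under the peptide-hormone limit 14 cells held a median of 8.86 CPM of Vim, and 8 cells just above it held 12.2 CPM. Beside the Neurog3 limit 3 cells below held a median of 3.66 CPM and 6 above held 158 CPM.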

How the data were processed

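Single eYFP-positive enteroid cells on 4 plates were measured by plate-based RNA sequencing with the BD Precise WTA kit. The values are counts, whole and not normalized, in a single matrix that the authors deposited and named as filtered cells; the filter is not described in the labels. The submitters' processing notes name bcl2fastq 2.17.1.14, cutadapt 1.10, Bowtie2 2.2.8, STAR 2.5.3a, UMI-tools 0.4.4, HTSeq 0.6.1 and the build mm10, with no role or order. Whether molecular indices were collapsed is not given in the sources used here: 27.9% of values above 0 equal 1 and the largest is 643177. Columns were assigned to samples by matching the experiment number in the column name to the pool number in the sample title, with 0 columns left over. Symbols were paired with 29120 of 29161 identifiers.

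The 6 genes and the gene lists were chosen with earlier results of these data known. Beside them, the text names the 3 genes most correlated with each over 290 cells (log2 of CPM + 10, plate means removed) and any listed gene past the threshold. CPM of summed cells was computed per plate and state. Counts summed per plate and state, with at least 5 cells each, were tested with edgeR 4.0.16 (quasi-likelihood, TMM, filterByExpr, plate as a block, Benjamini-Hochberg over all genes tested, threshold 0.05) in R 4.3.3. Cells in both states of a comparison were left out. The script was tested on simulated data. DESeq2 1.42.0, other scalings, filters and thresholds, cells thinned to 100000 counts and left-out plates were alternatives; scaling by library totals and a minimum of 4 cells were added after seeing the data. No doublet caller was run and no cell was removed.

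States of 1 plate come from the same sort, so the plate pairs them. For Chgb-low and Chgb-high cells, deviations from the state means correlated by 0.31, 0.22, 0.19 and 0.10 in plates 1 to 4, and by 0.10, 0.04 and 0.10 for Tph1-high and peptide-hormone-high cells in plates 2 to 4.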

Additional observations from a re-analysis of the deposited data

Results flagged for a closer look

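Of 24 sets of plate values, 6 genes in 4 states, 2 had a plate far from the other 3 by Dixon's test, which chance gives in about 1 of 20 sets. Both were Krt20 in plate 4, the jejunum plate. In Chgb-low cells it stood at 395 CPM there, against 0, 46.5 and 12.5 CPM in the duodenum plates. Of the 19 Chgb-low cells of plate 4, 6 were also peptide-hormone-high. A single cell held 38.2% of their Krt20 counts, and the median cell held 15.4 CPM. In Tph1-high cells of plate 4 Krt20 stood at 278 CPM, against 0, 1.15 and 0.440 CPM in the duodenum plates. Plate 4 also had the highest median depth, 678124 counts a cell, and a Krt20 count in all 63 cells; the part of either in these values was not tested.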

How the results depend on the processing

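The log2 fold changes of the 6 genes were recomputed 390 times. Of these, 344 kept their direction and side of the threshold. Values that had no test are counted there if only their direction held. A further 16 came to pass the threshold (given with each result), 8 no longer passed and 22 changed sign. The 8 lost calls were all Krt18 between Chgb-low and Chgb-high cells, given with that result. Of the sign changes, Krt8 in Tph1-high against peptide-hormone-high cells ran from -0.0459 (without duodenum replicate 2) to 0.201 when a plate was left out. In the Chgb comparison Krt8 came to -0.31 with library totals and -0.0479 without goblet and Paneth marker-high cells, and ran from -0.00490 (without duodenum replicate 2) to 0.197 with a plate left out. Krt20 there came to 0.0780 with no replicate block and 0.16 with thinned cells, and ran from -0.74 to 0.28 (without duodenum replicate 3). For Neurog3-positive against Chgb-low cells Krt8 came to 0.17 with DESeq2, 0.17 with RLE factors, 0.22 with at least 10 cells, 0.41 with library totals, 0.14 with Neurog3 also at 50 CPM and 0.49 without goblet and Paneth marker-high cells, and ran from -0.22 to 0.22 (without duodenum replicate 2). There Krt7 came to 0.0983 with at least 10 cells, 0.15 with library totals and 0.0876 without goblet and Paneth marker-high cells, and ran from -0.64 to 0.0983 (without duodenum replicate 2); Krt18 came to 0.0104 with library totals. Krt18 came to 0.25 with peptide hormones at 5000 CPM. For jejunum, Krt8 ran from -0.0558 (without duodenum replicate 1) to 0.74 and Krt18 from -0.0116 (without duodenum replicate 1) to 0.30.

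The number of genes called moved more. DESeq2 called 989 (Tph1-high against peptide-hormone-high), 872 (Neurog3-positive against hormone-high), 3045 (Chgb), 479 (Neurog3-positive against Chgb-low), 803 (jejunum) and 1008 (age). In the first comparison thinning gave 34, at least 10 cells 0, cells in both states counted as peptide-hormone-high 6, and leaving out a plate 0 each time. In the second, RLE factors gave 3, no filter 36, thinning 22, library totals 0, Neurog3 at 50 CPM 0, and at least 4 cells 90; without the replicate block it gave 0. In the Chgb comparison leaving out a plate gave 114 to 291, the fewest without duodenum replicate 1 or 2, and leaving out goblet and Paneth marker-high cells gave 130. In the fourth, no filter gave 65 and at least 4 cells 54. For jejunum, no filter gave 9 and leaving out a duodenum plate 0 to 10; for age, no filter gave 226 and thinning 23. The causes were not tested. The plate block changed no other call of the 6 genes than that of Krt18. Where a left-out plate or the minimum of 10 cells left 1 plate (Neurog3 comparisons), or no residual degrees of freedom (age), values had no test. The minimum of 10 cells was no separate fit. It repeated the main fit in the Chgb comparison and the fit without duodenum replicate 3 in the first comparison. In the Neurog3 comparisons it repeated the fit without duodenum replicate 2. The jejunum and 39-week groups hold 1 plate each and the Neurog3 comparisons 2, which limits precision.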
